A study of Mus musculus with 16 samples.

Results

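The genes described here are 9 matrix genes, Col1a1, Col1a2, Col3a1, Col5a2, Col4a1, Col6a1, Sparc, Dcn and Lum, out of 24421 genes counted in sorted tumour CD11b+ cells. They were chosen from measured values of these same libraries, as genes of fibroblast matrix whose RNA was counted in a sort for myeloid cells, so their levels and differences are a description and carry no test. All 9 were found in the counted genes, and 7 of them passed the filter on low counts. Dcn and Lum did not pass it.

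The study followed myeloid cells in subcutaneous tumours of MC38-Ova, a mouse colon adenocarcinoma line that carries ovalbumin, in Kaede transgenic mice. Violet light switches the Kaede protein of host cells in the tumour from green to red fluorescence, so that Kaede-red cells were in the tumour at photoconversion and Kaede-green cells entered later. At 24h and 72h post-photoconversion, live CD11b+ and CD45+ cells that lacked TER119 and NK1.1 were sorted by Kaede colour, and total RNA was sequenced in bulk. There were 4 libraries in each of the groups Kaede-green 24h, Kaede-red 24h, Kaede-green 72h and Kaede-red 72h, and 16 in all.

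All groups carried the genotype C57BL/6 in the labels, with the Kaede transgene, and the treatment label was Control (NA) throughout. The labels put all libraries in a single batch, Jan_2021. The methods give female mice of 8 to 14 weeks for the study. Colour marks presence at photoconversion and not age or origin of a cell, and the sort keeps CD45+ cells, which fibroblasts are not. A figure legend takes the libraries as tumours of separate mice, and whether this holds between the colours, or a Kaede-green and a Kaede-red library with the same number came from 1 tumour, is not stated.

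Collagens are secreted proteins of 3 chains wound into a triple helix. Type I collagen, built from the chains of Col1a1 and Col1a2, and type III collagen, from Col3a1, form the fibrils of connective tissue, and the type V chain of Col5a2 enters the same fibrils. Col4a1 encodes a chain of type IV collagen, the network of basement membranes, and Col6a1 a chain of the beaded filaments of type VI collagen. Sparc encodes a collagen-binding glycoprotein, while Dcn (decorin) and Lum (lumican) encode small leucine-rich proteoglycans that bind fibrils. In tumours, fibroblasts are the main makers of fibrillar collagen, and macrophages can take up and degrade collagen and also transcribe some matrix genes, type VI chains among them.

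The collagen members share the repeat of the helix, in which a glycine opens each triplet of residues. This repeat defines collagen chains, so the choice of collagen genes fixed it. It was read from the sequences and not from the counts. The coding sequence of Col1a1 (4359 bases, 63.0% GC) held an unbroken run of 338 glycine-led triplets, Col1a2 held 339, Col3a1 344 and Col5a2 339. Col6a1 held a run of 87 triplets, and the longest run in Col4a1, whose helix is interrupted, was 40. Sparc, Dcn and Lum held at most 2 glycine-led triplets in a row. The first 90 bases of the run are printed for a type I, the type III and the type IV chain, to show the repeat and how the chains differ in it. They are read 5′ to 3′ from GENCODE M21 transcripts on mm10, in lower case, with the GG of the glycine that opens each triplet in capitals. They begin at coding base 502 of Col1a1, 490 of Col3a1 and 127 of Col4a1.
Col1a1: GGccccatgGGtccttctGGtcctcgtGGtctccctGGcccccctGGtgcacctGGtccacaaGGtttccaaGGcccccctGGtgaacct
Col3a1: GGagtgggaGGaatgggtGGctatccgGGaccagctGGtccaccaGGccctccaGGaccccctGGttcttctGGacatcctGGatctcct
Col4a1: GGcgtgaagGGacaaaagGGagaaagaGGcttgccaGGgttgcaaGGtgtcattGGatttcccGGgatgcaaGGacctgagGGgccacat
The coding sequences of the 7 genes that passed the filter ran from 55.8% GC in Col5a2 to 63.0% in Col1a1, beside 47.6% in Dcn and 44.5% in Lum. Over the longest transcript, the 7 genes ran from 49.6% in Col5a2 to 58.9% in Col1a1, and the median of the genes tested was 49.2%.

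The genes lie on 5 chromosomes of mm10. Col3a1 (chromosome 1, 45311538 to 45349706) and Col5a2 (45374321 to 45503282, on the other strand) are separated by 24614 bases, and Dcn and Lum on chromosome 10 by 46984 bases. Col6a1 lies on the same chromosome from 76708792 to 76726168, with Col6a2 85161 bases away. Col1a1 (94936224 to 94953042) and Sparc (55394500 to 55423183) are far apart on chromosome 11, and Col1a2 is on chromosome 6 from 4504814 to 4541544. Col4a1 (chromosome 8, 11198423 to 11312826) overlaps Col4a2 on the other strand by 22 bases, and also the predicted gene Gm15418 on that strand. Since the strand setting of the counting is not stated, counts in these overlaps are uncertain. Col1a2, Col3a1, Col5a2 and Col4a1 each overlap a predicted gene on their own strand, and how reads there were counted is not stated.

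Matrix RNA was a small part of these libraries. Total counts ran from 3216858 to 15423085 per library, and most of them fell on Rn45s, the gene of the precursor of ribosomal RNA. Its share was 91.0, 86.5, 91.6 and 93.4% in Kaede-green 24h replicates 1 to 4, and 88.2, 91.0, 87.9 and 79.0% in Kaede-green 72h. In Kaede-red libraries it was 66.2, 68.2, 83.1 and 84.9% at 24h and 70.3, 66.2, 73.8 and 55.8% at 72h. Kaede-red 24h replicates 3 and 4 thus stood apart from replicates 1 and 2, though below all Kaede-green 24h libraries. They lay within the span of the Kaede-green libraries only through Kaede-green 72h replicate 4.

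Counts outside Rn45s ran from 468092 to 912689 in Kaede-green 24h libraries and from 758192 to 1968061 in Kaede-red 24h libraries. At 72h they ran from 649407 to 780523 and from 1080792 to 5472477. The 9 genes together took 157 to 432 counts in each Kaede-green 24h library, 362 to 1274 in Kaede-red 24h, 265 to 397 in Kaede-green 72h and 231 to 1477 in Kaede-red 72h. Depth differed between the colours at both times, and so did the share of Lars2 and Mir6236, a pair of genes that took 29.2 to 51.3% of the counts outside Rn45s in Kaede-green and 3.05 to 27.8% in Kaede-red libraries. With Kaede-red libraries thinned to the median Kaede-green depth outside Rn45s of their time, 6 of the 9 genes passed the filter, with median red-green differences (log2, edgeR on the TMM scale) of -0.57 at 24h, -1.60 at 72h and -1.04 for the times together, near those given below. The part of Lars2 and Mir6236 was not tested beyond the scalings given.

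**Figure D1:**
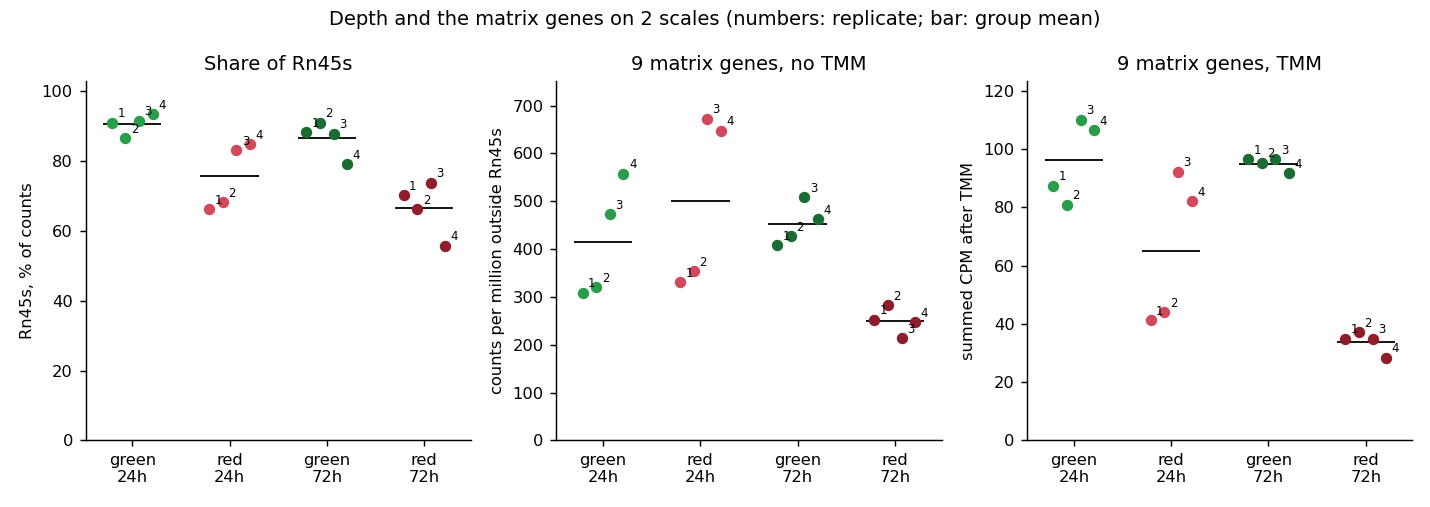
Share of Rn45s in each library in percent, CPM outside Rn45s of the 9 matrix genes without TMM, and their summed CPM with TMM, with 1 point per library and the group mean as a bar. Kaede-red 24h replicates 3 and 4 have Rn45s shares of 83.1 and 84.9% and the highest matrix shares without TMM, 673 and 647 CPM.

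Levels are given as CPM, scaled by the trimmed mean of M values (TMM), which sets the middle of the genes equal between libraries. The TMM factors were 0.318 to 1.06 in Kaede-green and 1.19 to 3.84 in Kaede-red libraries. The direction of a red-green difference depends on this step. Scaled by library size alone, with Rn45s in the denominator, the median gene was higher by 2.20 (log2) in Kaede-red cells over both times, by 2.33 at 24h and by 2.04 at 72h. The red-green differences are therefore given against the middle of all genes tested.

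The label of fibroblast RNA was compared with 20 fibroblast markers, which summed to less than the 9 genes in each group. All 20 were among the counted genes and 4 passed the filter, with Pdpn, which macrophages also express, taking 25.3% of their summed CPM (608 counts). Over all 16 libraries together, Fap had 22 counts, Mfap5 4, Islr 7, Clec3b 7 and Meox1 2, and Tcf21 had none. Pdgfra had 296 counts, Thy1 178, Pi16 171, Pdgfrb 125, Twist2 100, Osr1 99, Twist1 82 and Gas1 73, against 1878 for Col3a1, 1312 for Col1a1 and 159 for Col5a2. Dcn and Lum had the fewest counts of the 9 genes. The genes are called matrix genes here, and their cell of origin was not tested.

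Dcn had 100 counts in all, 15 in Kaede-green and 85 in Kaede-red libraries, and was seen in 14 of the 16 libraries. Its mean level was 0.638 ± 0.699 CPM (SD, n = 4) in Kaede-green 24h, 0.806 ± 0.631 in Kaede-red 24h, 0.529 ± 0.360 in Kaede-green 72h and 0.579 ± 0.263 CPM in Kaede-red 72h. The groups overlapped at both times. Lum had 13 counts, 1 of them in a Kaede-green library, and none in 11 of the 16 libraries.

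Summed over the 9 genes on the TMM scale, matrix RNA was level in Kaede-green cells. In Kaede-red cells its mean was lower, with the colours apart at 72h and overlapping at 24h. The sum was 96.3 ± 14.3 CPM (SD, n = 4) in Kaede-green 24h and 95.1 ± 2.23 CPM in Kaede-green 72h. It was 64.9 ± 26.1 CPM in Kaede-red 24h, from 41.3 to 92.3, and 33.9 ± 3.75 CPM in Kaede-red 72h, from 28.5 to 37.2. All Kaede-red 72h libraries lay below all Kaede-green 72h libraries (91.8 to 96.5 CPM), while the groups overlapped at 24h (80.9 to 110.2 CPM in Kaede-green). In bulk RNA, fewer cells that hold these transcripts and less of them per cell cannot be told apart.

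In CPM outside Rn45s, without TMM, the 9 genes took 309, 320, 473 and 558 in Kaede-green 24h replicates 1 to 4, and 408, 427, 509 and 463 in Kaede-green 72h. They took 331, 354, 673 and 647 in Kaede-red 24h and 252, 283, 214 and 248 in Kaede-red 72h. On this scale, too, the Kaede-red 72h libraries were below all others. The Kaede-red 24h libraries were not below Kaede-green 24h, and replicates 3 and 4 were the highest of the 16. Replicates 3 and 4 were the higher pair in Kaede-green 24h as well. Over all genes tested, with group means taken away, r between the colours at 24h was 0.05 to 0.15 within replicates 1 and 2 and within replicates 3 and 4, and -0.13 to -0.03 across these pairs. What the 2 pairs share is not stated in the labels. This was seen after the data were examined, and a block for replicate number and time gave a median of -0.63 for the 7 genes at 24h, with none called.

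Compared per kilobase of exon, the order of the genes was nearly the same in the 4 groups. Exon length here is the union of the exons of all transcripts of a gene. It was 12426 bases for Col1a2 and 6563 for Col1a1, beside coding sequences of 4116 and 4359 bases. The order and the gaps between genes depend on this length, and other lengths were not compared. Col6a1 was highest (5.91 ± 2.37 CPM per kb in Kaede-green 24h, 3.96 ± 2.02 in Kaede-red 24h, 4.84 ± 0.386 in Kaede-green 72h and 1.98 ± 0.332 in Kaede-red 72h), followed by Sparc (3.40, 2.63, 3.51 and 1.304 CPM per kb). Col3a1, Col1a1 and Col4a1 came next and lay close together, between 0.577 and 2.42 CPM per kb as group means. Col1a2 and Col5a2 were lowest on this scale, with 0.185 to 0.626 and 0.0701 to 0.218 CPM per kb. In each group, all libraries of these 5 genes lay above all those of Col1a2, and those of Col1a2 above those of Col5a2, in CPM per kb. Neighbours among the 5 overlapped, except that Col3a1 lay above Col1a1 in all libraries of Kaede-green 24h.

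**Figure D2:**
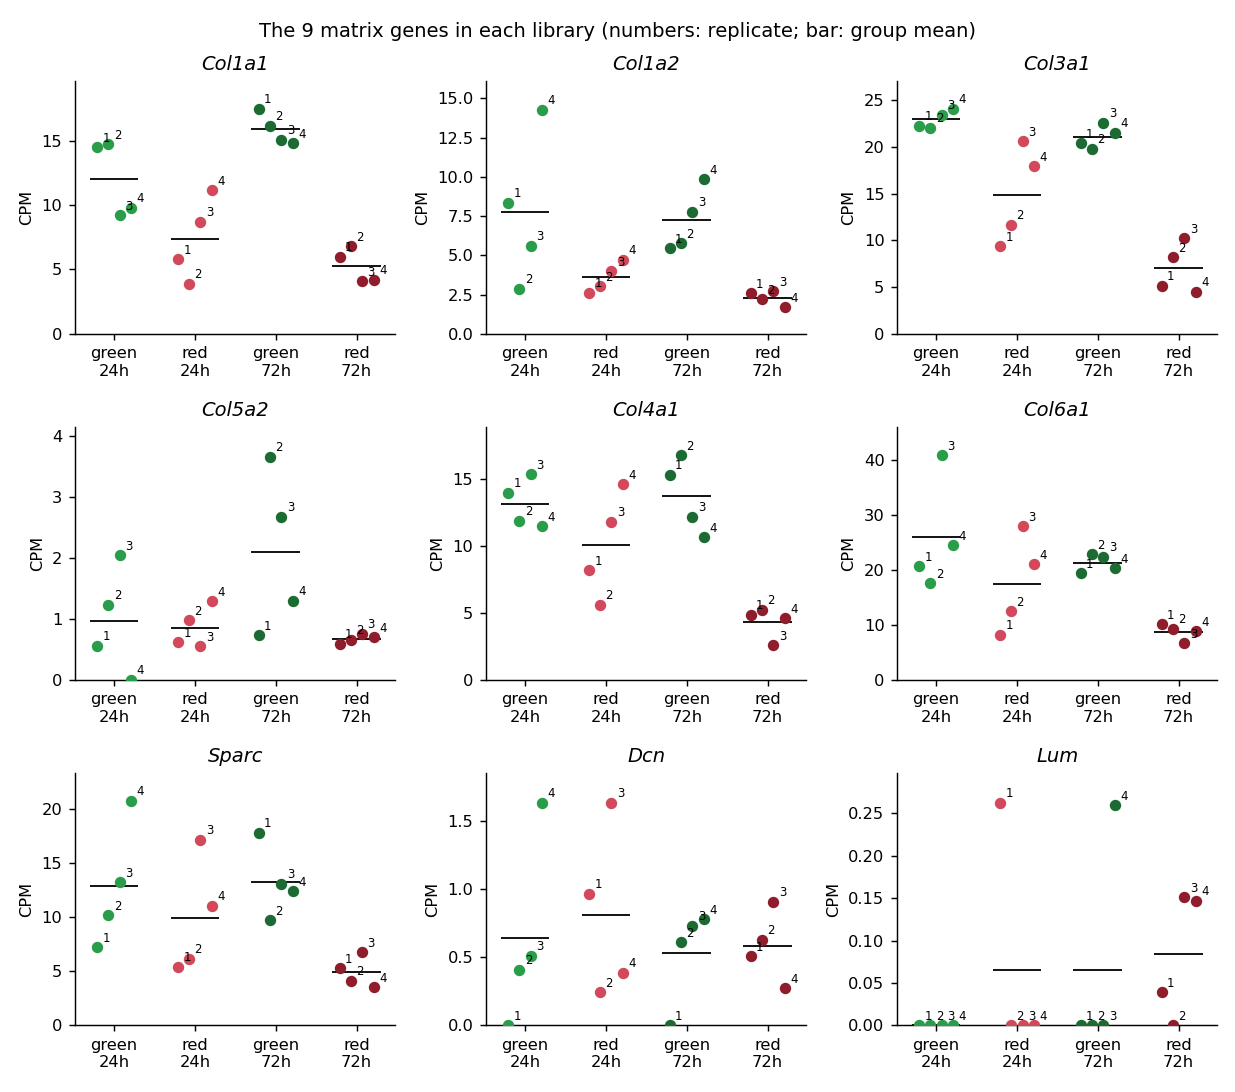
TMM-scaled CPM of each matrix gene in each of the 16 libraries, with the group means as bars. At 72h the Kaede-red libraries lie below the Kaede-green libraries for all genes that passed the filter except Col5a2, while at 24h only those of Col3a1 do. The red-green direction holds for this scale and turns under scaling by library size alone.

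The first comparison asks how cells that were in the tumour at photoconversion differ from cells that entered since. Among the fibril-forming chains of the matrix genes, Col1a1 and Col3a1 had the most counts. Col1a1 had 14.5, 14.7, 9.19 and 9.79 CPM in Kaede-green 24h replicates 1 to 4, and 5.78, 3.89, 8.69 and 11.2 CPM in Kaede-red 24h. At 72h it had 17.5, 16.1, 15.1 and 14.8 CPM in Kaede-green and 5.97, 6.82, 4.08 and 4.20 CPM in Kaede-red libraries. The groups overlapped at 24h through Kaede-red replicate 4, and at 72h the lowest Kaede-green library was above the highest Kaede-red library by more than the spread within either group.

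On the TMM scale Col3a1, the type III chain, was the steadiest of the 9 genes in Kaede-green cells. In CPM outside Rn45s, without TMM, it varied more around its mean than Col1a1 and Col4a1. Its levels were 22.3, 22.1, 23.5 and 24.1 CPM in Kaede-green 24h replicates 1 to 4 and 9.37, 11.7, 20.6 and 17.9 CPM in Kaede-red 24h. They were 20.4, 19.8, 22.6 and 21.5 CPM in Kaede-green 72h and 5.15, 8.23, 10.3 and 4.50 CPM in Kaede-red 72h. Kaede-red libraries were below Kaede-green libraries at both times, and at 24h replicates 1 and 2 were well below replicates 3 and 4.

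Col1a2, the partner chain of Col1a1, had fewer counts and more spread. Its levels were 8.36, 2.86, 5.61 and 14.3 CPM in Kaede-green 24h and 2.63, 3.04, 3.98 and 4.71 CPM in Kaede-red 24h. At 72h they were 5.47, 5.79, 7.78 and 9.85 CPM in Kaede-green and 2.58, 2.21, 2.72 and 1.70 CPM in Kaede-red cells. The groups overlapped at 24h, through the low Kaede-green replicate 2, and were apart at 72h. Col5a2 had 159 counts in all and lay between 0 and 3.66 CPM, with overlap at both times.

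Col4a1, the basement membrane chain, had 13.9, 11.9, 15.3 and 11.4 CPM in Kaede-green 24h and 8.15, 5.59, 11.8 and 14.6 CPM in Kaede-red 24h. At 72h it had 15.3, 16.8, 12.2 and 10.6 CPM in Kaede-green and 4.84, 5.21, 2.57 and 4.601 CPM in Kaede-red libraries. Kaede-red 24h replicates 3 and 4 were within the Kaede-green span and replicates 1 and 2 below it, and at 72h all Kaede-red libraries were below it.

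Col6a1, the type VI chain, had 20.6, 17.6, 40.8 and 24.5 CPM in Kaede-green 24h and 8.15, 12.4, 27.9 and 21.02 CPM in Kaede-red 24h. In Kaede-green 72h it had 19.3, 22.8, 22.4 and 20.2 CPM, and in Kaede-red 72h 10.03, 9.26, 6.64 and 8.80 CPM. Replicate 3 was the highest of each colour at 24h, and the colours were apart at 72h. Sparc had 7.24, 10.2, 13.3 and 20.8 CPM in Kaede-green 24h and 5.43, 6.19, 17.2 and 11.1 CPM in Kaede-red 24h. Its levels were 17.9, 9.75, 13.1 and 12.5 CPM in Kaede-green 72h and 5.27, 4.15, 6.79 and 3.55 CPM in Kaede-red 72h. For Sparc, too, Kaede-red was below Kaede-green in all libraries at 72h and overlapped it at 24h.

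Counted over the 7 genes, Kaede-red libraries were all below Kaede-green libraries for 1 gene at 24h, where this held for 5.44% of the 9642 genes tested (525 genes), and for 6 genes at 72h, where it held for 9.52% (918 genes). Nothing is read from these counts, since the genes were chosen with these levels known.

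In the fit, all 7 genes had lower estimates in Kaede-red than in Kaede-green cells on the TMM scale, and all 7 turned to higher under scaling by library size alone. Over both times the log2 fold change ± SE was -1.12 ± 0.20 for Col1a1, -1.39 ± 0.25 for Col1a2, -1.13 ± 0.18 for Col3a1 and -0.96 ± 0.46 for Col5a2. It was -1.0 ± 0.19 for Col4a1, -0.94 ± 0.20 for Col6a1 and -0.94 ± 0.23 for Sparc. The median of the 7 was -1.0, and that of all genes tested 0.06. Of the 7 genes, 6 had an adjusted p under 0.05 and were lower, beside 10.3% of the genes tested that were called lower (990) and 9.96% called higher (960), and nothing is read from that count.

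At 24h the estimates were smaller and less precise. They ranged from -1.09 ± 0.36 for Col1a2 to -0.26 ± 0.70 for Col5a2, with -0.67 ± 0.29 for Col1a1, -0.64 ± 0.25 for Col3a1, -0.62 ± 0.28 for Col6a1, -0.42 ± 0.33 for Sparc and -0.39 ± 0.28 for Col4a1. Their median was -0.62 and that of all genes 0.05. None of the 7 was called by edgeR, while 4.30% of the genes tested were called lower (415) and 3.20% higher (309), and DESeq2 called 1 of the 7. Without Kaede-green 24h replicate 2, 1 of the 7 was called, and with Kaede-red 24h replicates 3 and 4 both left out the median was -1.15 and 3 were called.

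At 72h the estimates were larger and close to each other. They were -1.56 ± 0.27 for Col1a1, -1.70 ± 0.35 for Col1a2, -1.63 ± 0.25 for Col3a1, -1.66 ± 0.60 for Col5a2, -1.61 ± 0.27 for Col4a1, -1.27 ± 0.28 for Col6a1 and -1.47 ± 0.32 for Sparc. Their median was -1.61 beside 0.03 over all genes, and 6 of the 7 were called lower, beside 8.76% of the genes tested (845) called lower and 8.07% called higher (778). All 7 were called in some other fits, such as without Kaede-green 72h replicate 1 or by DESeq2. None was called under scaling by library size alone or with the share of Rn45s as a covariate. Nothing is read from these counts either.

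**Figure D3:**
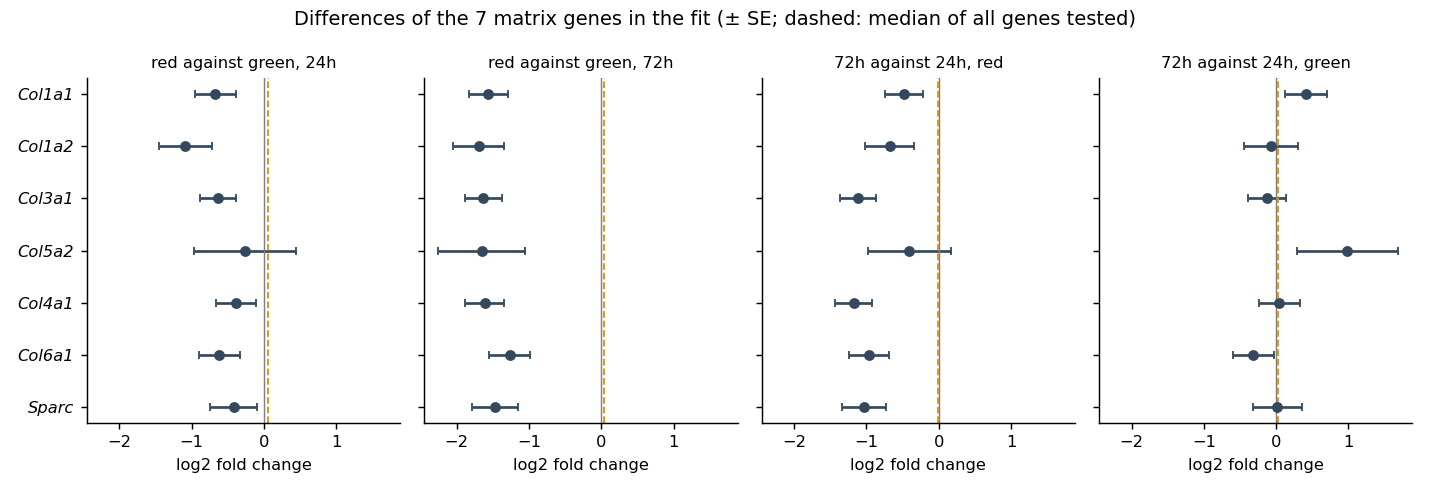
Log2 fold change (± SE) of the 7 matrix genes that passed the filter, between the colours at 24h and 72h and between the times in each colour, with the median of all genes tested as a dashed line. Points of the red-green comparisons at 72h lie between -1.70 and -1.27 on the TMM scale, which scaling by library size alone turns to between 0.16 and 0.74.

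These differences changed with the scaling more than with any left-out library. Scaled by library size alone, the median of the 7 genes was 1.08 over both times, where the median of all genes was 2.20, so the 7 stayed below the middle of the genes while their sign turned. Scaled by counts outside Rn45s alone, an alternative chosen after seeing the data, the medians of the matrix genes and of all genes were 0.23 and 0.91 at 24h and -0.92 and 0.69 at 72h. With the counts of Lars2 and Mir6236 taken out of that library size too, they were -0.40 and 0.24 at 24h and -1.41 and 0.22 at 72h.

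The share of Rn45s moved with colour and with the matrix genes, and its part in the differences cannot be told apart from that of colour in these libraries. With this share as a covariate, the median of the 7 genes over both times was -0.49 (from -0.83 to 0.01), beside 0.07 for all genes. None of the 7 was called by edgeR in that fit, which called 156 genes in place of 1950. At 24h the median was -0.06 and at 72h -0.88 (from -1.20 to -0.33).

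**Figure D4:**
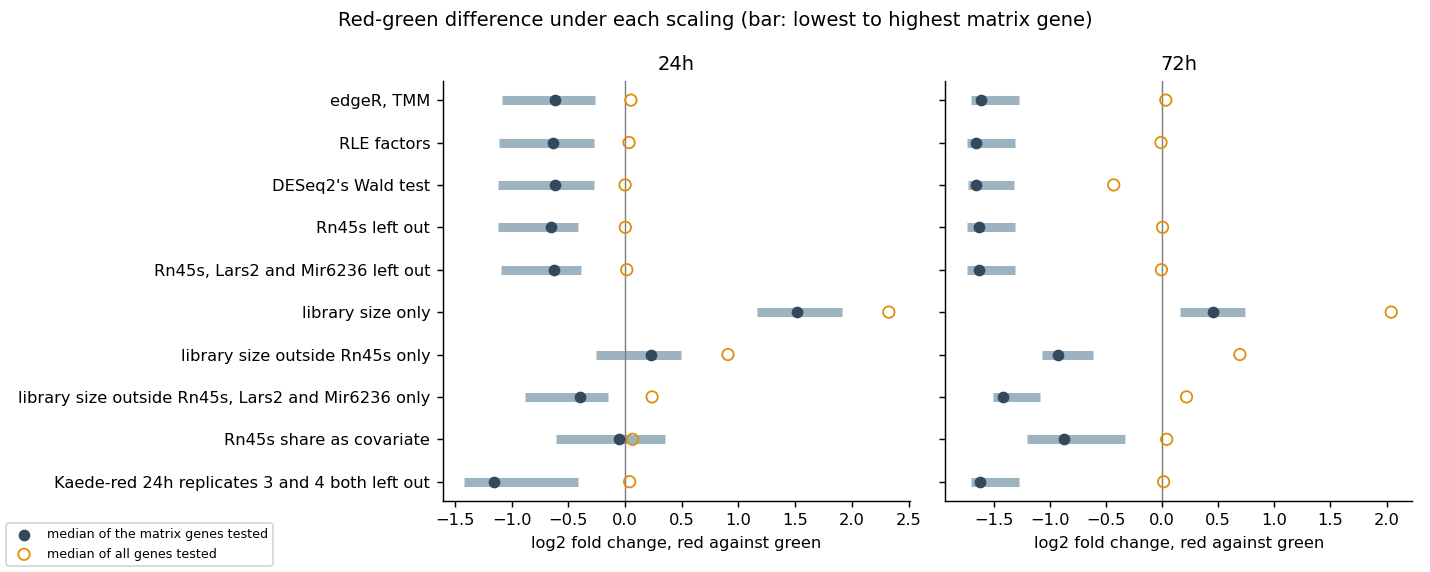
Red-green log2 fold change of the matrix genes at 24h and 72h under each scaling, as the median (filled point) and the range from the lowest to the highest gene (bar), beside the median of all genes tested (open circle). The filled point lies left of the open circle in each fit drawn, while its side of 0 turns under library-size scaling at both times and under the counts outside Rn45s at 24h.

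The second comparison follows each colour from 24h to 72h. In Kaede-red cells, which had by then been in the tumour for longer, the 7 matrix genes had lower estimates at 72h than at 24h, apart from Col1a1 under scaling by library size alone (0.11) or with Kaede-red 24h replicates 3 and 4 left out (0.10) and Col5a2 under scaling by library size alone (0.14). The log2 fold changes were -1.17 ± 0.26 for Col4a1, -1.12 ± 0.25 for Col3a1, -1.03 ± 0.31 for Sparc and -0.96 ± 0.27 for Col6a1. They were smaller for Col1a2 (-0.68 ± 0.34), Col1a1 (-0.47 ± 0.26) and Col5a2 (-0.41 ± 0.58). The median was -0.96 beside -0.01 over all genes, and 4 of the 7 were called lower, beside 3.76% of the genes tested called lower (363) and 4.91% called higher (473), and nothing is read from this. Under scaling by library size alone the medians were -0.32 and 0.42.

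This difference rested on few libraries. Without Kaede-red 24h replicates 3 and 4, which an added fit left out after the data were seen, the median of the 7 genes was -0.31, none was called and 9 genes in all were called in place of 836. Leaving out single libraries, 294 genes were called without Kaede-red 24h replicate 3, 328 without Kaede-red 24h replicate 4, 287 without Kaede-red 72h replicate 1, 395 without Kaede-red 72h replicate 4 and 536 without Kaede-red 72h replicate 2. In these 5 fits 1 or 2 of the 7 matrix genes were called, and their median was between -1.01 and -0.64.

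In Kaede-green cells no matrix gene was called between the times, though all 72h libraries of Col1a1 lay above all 24h ones, by a narrow gap (lowest 14.78 against highest 14.71 CPM). This held for 1.90% of the genes tested (183), and nothing is read from it. The log2 fold changes from 24h to 72h were 0.42 ± 0.29 for Col1a1, -0.07 ± 0.37 for Col1a2, -0.12 ± 0.26 for Col3a1, 0.99 ± 0.70 for Col5a2, 0.05 ± 0.29 for Col4a1, -0.31 ± 0.29 for Col6a1 and 0.02 ± 0.34 for Sparc. Their median was 0.02 and that of all genes 0.03. By edgeR, 0 of the 9642 genes were called (0%), with 835 at an unadjusted p under 0.05. DESeq2, which tested 21009 genes, called 13, none of them a matrix gene. Leaving out Kaede-green 72h replicate 4 gave 2 genes, and leaving out Kaede-green 72h replicate 1 or 2 gave 1. Under scaling by library size alone the medians of the 7 genes and of all genes were 0.78 and 0.74. Since these are newly entered cells at both times, the comparison sets cells of up to 24h of stay beside cells of up to 72h.

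On the TMM scale the difference between the colours was larger at 72h than at 24h for each of the 7 genes, while under scaling by library size alone it was smaller at 72h (0.16 to 0.74) than at 24h (1.17 to 1.91), with a median change of -1.25. The change on the TMM scale was -0.89 ± 0.39 for Col1a1, -0.61 ± 0.50 for Col1a2, -0.99 ± 0.36 for Col3a1 and -1.40 ± 0.91 for Col5a2. The change was -1.22 ± 0.38 for Col4a1, -0.65 ± 0.40 for Col6a1 and -1.05 ± 0.45 for Sparc, with a median of -0.99 beside -0.07 over all genes. None of the 7 was called by edgeR, except Col4a1 (adjusted p = 0.0493) when only genes with at least 10 counts in every library were tested. In the fit of all 9642 genes, 0.767% were called (74) and 1471 had an unadjusted p under 0.05. DESeq2, which tested 21009 genes, called 343, 1 matrix gene among them. Nothing is read from these calls of matrix genes, which were chosen with their levels known. With Kaede-red 24h replicates 3 and 4 left out the median change was -0.32, and that of Col6a1 turned to 0.08.

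The count of genes whose difference changed was unstable to single libraries. It was 2 without Kaede-red 24h replicate 3, 5 without Kaede-red 24h replicate 4, 6 without Kaede-green 24h replicate 2 or Kaede-red 72h replicate 1, 11 without Kaede-red 72h replicate 2, and 13 with Kaede-green 24h replicate 3 out. It was 18 and 20 when Kaede-green 72h replicate 2 or 3 was left out, 24 and 40 for Kaede-red 72h replicate 4 or 3, 127 for Kaede-green 24h replicate 4 and 155 for Kaede-red 24h replicate 1. None of the matrix genes was called by edgeR in these fits.

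Other collagen chains were looked at in the same way. Like the matrix genes, this list and the other gene lists were chosen with earlier results of these data known. Their counts of calls and adjusted p values are therefore a description. Of 37 further chains, 9 passed the filter. Beside 10.3% of all genes tested called lower, all 9 had fallen in Kaede-red cells over both times by edgeR on the TMM scale. Their median log2 fold change was -0.99, beside 0.06 over all genes tested, and turned to 1.06 under scaling by library size alone. With the share of Rn45s as a covariate the median was -0.37 and none was called. Leaving out single libraries, 7 to 10 were called lower.

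Col6a3, the longest type VI chain and the one with the highest summed level of the 37, had 33.98, 32.3, 57.4 and 65.7 CPM in Kaede-green 24h and 16.6, 28.3, 54.1 and 46.7 CPM in Kaede-red 24h. At 72h it had 65.9, 53.0, 42.8 and 50.8 CPM in Kaede-green and 19.3, 16.02, 12.8 and 23.9 CPM in Kaede-red libraries. Like Col1a1, Col1a2, Col4a1, Col6a1 and Sparc, it overlapped between the colours at 24h and was lower in all Kaede-red libraries at 72h. Its log2 fold change over both times was -0.97 ± 0.20 (edgeR, adjusted p = 0.000415). Col6a2, the partner chain of the same type, fell by 1.08 ± 0.19 (edgeR, adjusted p = 8.95e-05), Col5a1, which pairs with Col5a2, by 0.84 ± 0.18 (adjusted p = 0.000875) and Col16a1, a fibril-associated chain, by 1.10 ± 0.23 (adjusted p = 0.000559).

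Scaled by counts outside Rn45s alone, the values of these 4 chains were between -0.33 and -0.08 and none was called, beside a median of all genes of 0.81. Col4a5 had the largest difference of the called chains, -1.38 ± 0.49 (edgeR, adjusted p = 0.0436). That call was lost without Kaede-green 24h replicates 1 or 3, Kaede-red 24h replicates 1 or 2, Kaede-green 72h replicates 1, 2 or 4, or Kaede-red 72h replicates 2, 3 or 4, each left out alone (edgeR, adjusted p from 0.0537 to 0.104).

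By time, none of the 9 other chains was called at 24h (median -0.44) and 8 were called lower at 72h (median -1.54), by edgeR on the TMM scale. Of all genes tested, 4.30% were called lower at 24h, 8.76% at 72h and 3.76% from 24h to 72h in Kaede-red cells. From 24h to 72h in Kaede-red cells 5 of the 9 chains fell (median -1.0). But 1 did without Kaede-red 24h replicate 3 or without replicate 4, 2 without Kaede-red 72h replicate 1 or 2 and 3 without Kaede-red 72h replicate 3. In Kaede-green cells none of the chains was called (median 0.11). Summed over the 37 chains, the level was 144.6 ± 34.8 CPM in Kaede-green 24h, 112.1 ± 53.0 in Kaede-red 24h, 161.7 ± 7.62 in Kaede-green 72h and 56.5 ± 9.21 CPM in Kaede-red 72h (SD, n = 4).

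Glycoproteins of the basement membrane, the sheet that also holds type IV collagen, had lower estimates over both times on the TMM scale, with fewer calls. Of 14 listed genes 6 passed the filter (median over both times -0.85 on the TMM scale, 1.19 under scaling by library size alone). Beside 10.3% of all genes tested called lower, 3 of the 6 had fallen over both times. These were Hspg2 (perlecan, -0.91 ± 0.21, edgeR, adjusted p = 0.00158), Lamc1 (a laminin chain, -0.79 ± 0.24, adjusted p = 0.0162) and Lama5 (a laminin chain, -1.08 ± 0.38, adjusted p = 0.0401). Agrn (agrin) was at -0.53 ± 0.24 (adjusted p = 0.125) and was called without Kaede-green 24h replicate 1 (edgeR, adjusted p = 0.0448) or Kaede-red 24h replicate 4 (adjusted p = 0.0326). The called genes numbered 5 of the 6 with Kaede-green 24h replicate 1 out, and all 6 with Kaede-red 24h replicate 4 out. Without Kaede-green 24h replicate 4, 1 of the 6 was called, with Lamc1 at -0.53 (edgeR, adjusted p = 0.0863) and Lama5 at -0.72 (adjusted p = 0.189).

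The Lama5 call was also lost without Kaede-green 24h replicate 3, Kaede-red 24h replicates 1 or 2, Kaede-green 72h replicates 3 or 4, or Kaede-red 72h replicates 1, 2 or 3 (edgeR, adjusted p from 0.0530 to 0.0991). DESeq2 did not call Lama5 (adjusted p = 0.0720). At 24h none of the 6 was called (median -0.44), beside 4.30% of all genes tested called lower. At 72h 4 of the 6 were lower (median -1.31), beside 8.76%. With the share of Rn45s as a covariate none of the 6 was called at either time or over both. The summed level was 61.1 ± 21.8 CPM in Kaede-green 24h, 47.8 ± 24.1 in Kaede-red 24h, 66.4 ± 11.8 in Kaede-green 72h and 28.4 ± 5.36 CPM in Kaede-red 72h.

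Other matrix glycoproteins and proteoglycans did not move as a group. Of 42 listed, 40 were among the counted genes and 15 passed the filter. Over both times 5 of the 15 fell and 2 rose from green to red (median -0.47 on the TMM scale, 1.65 under scaling by library size alone). Of all genes tested, 10.3% were called lower and 9.96% higher. Ecm1, an extracellular matrix glycoprotein, rose by 1.61 ± 0.21 (edgeR, adjusted p = 1.04e-06) and Tgfbi, a collagen-binding protein made by macrophages, by 0.84 ± 0.16 (adjusted p = 0.000216). For Tgfbi this is the mean of 0.31 ± 0.22 at 24h and 1.36 ± 0.23 at 72h (edgeR, adjusted p = 0.465 and 6.57e-05). Fn1 (fibronectin) had a difference of -0.04 ± 0.13 (adjusted p = 0.879) over both times, the mean of opposite values, -0.51 ± 0.18 at 24h and 0.44 ± 0.18 at 72h (edgeR, adjusted p = 0.0841 and 0.0902), both of which DESeq2 called (adjusted p = 0.00336 and 0.0177). Its Kaede-red libraries were all below the Kaede-green ones at 24h (49.1 to 71.9 against 78.9 to 84.9 CPM) and all above them at 72h (92.7 to 122.0 against 69.2 to 87.1 CPM), as held for 5.44% of the genes tested at 24h and 13.0% at 72h (1256 genes). Thbs1 (thrombospondin 1), which took 49.1% of the summed CPM of the list, fell by 0.54 ± 0.15 (adjusted p = 0.00923), and turned to 0.22 when scaled by counts outside Rn45s alone. Its call over both times was also lost without a filter (edgeR, adjusted p = 0.0623) and without Kaede-red 24h replicates 3 and 4 (adjusted p = 0.0818). It was at -1.10 ± 0.22 at 24h and 0.01 ± 0.21 at 72h, a change of 1.11 ± 0.30 that was not called (edgeR, adjusted p = 0.0673). It was called by DESeq2 (adjusted p = 0.00130), and by edgeR in some other fits, such as without a filter (adjusted p = 0.0327), without Kaede-green 24h replicate 4 (adjusted p = 0.0481) or without Kaede-red 24h replicate 1 (adjusted p = 0.0394). With Kaede-red 24h replicates 3 and 4 left out the change was 0.79 (edgeR, adjusted p = 0.486). At 24h 2 of the 15 were lower and 1 higher, and at 72h 3 were lower and 2 higher, with 1 lower without Kaede-green 72h replicate 3 or without Kaede-red 72h replicate 1.

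Tgfbi and Fn1 ran against the matrix genes from 24h to 72h in Kaede-red cells, where they rose by 1.21 ± 0.23 (edgeR, adjusted p = 0.00153) and 0.89 ± 0.18 (adjusted p = 0.00261). With Kaede-red 24h replicates 3 and 4 left out the values were 0.82 (edgeR, adjusted p = 0.194) and 0.91 (adjusted p = 0.104). Tgfbi had 275.9, 241.9, 144.1 and 146.9 CPM in Kaede-red 24h and 541.5, 462.2, 398.3 and 470.4 CPM in Kaede-red 72h, against 139.2 to 222.0 CPM in the Kaede-green libraries. Here Kaede-red 24h replicates 3 and 4, which were high in matrix RNA, were the low pair. The summed level of the list was 906.6 ± 66.3 CPM in Kaede-green 24h, 594.8 ± 132.3 in Kaede-red 24h, 778.5 ± 49.8 in Kaede-green 72h and 1089 ± 77.9 CPM in Kaede-red 72h.

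Fstl1, a secreted glycoprotein related to Sparc, had the largest called fall of the same list. It had 9.47, 7.36, 11.5 and 14.7 CPM in Kaede-green 24h, 4.29, 4.74, 14.8 and 14.8 CPM in Kaede-red 24h, 20.8, 16.5, 13.1 and 15.8 CPM in Kaede-green 72h and 4.45, 3.67, 3.32 and 4.31 CPM in Kaede-red 72h. Kaede-red 24h replicates 1 and 2 were thus at the level of Kaede-red 72h, and replicates 3 and 4 at that of the Kaede-green libraries. Its log2 fold change over both times was -1.10 ± 0.23 (edgeR, adjusted p = 0.000567), and its difference changed between the times by -1.87 ± 0.45 (edgeR, adjusted p = 0.0483). With those replicates 3 and 4 left out the change was -0.80 (adjusted p = 0.602).

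The change of Fstl1 kept its call without Kaede-green 24h replicate 4, Kaede-red 24h replicates 1 or 2 or Kaede-green 72h replicate 4, and lost it without any other single library (edgeR, adjusted p from 0.0595 to 0.140).

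Of 31 listed enzymes and chaperones that process collagen, 30 were among the counted genes and 17 passed the filter, with 2 lower and 2 higher over both times, beside 10.3% and 9.96% of all genes tested, and a median of -0.23. That median turned to 1.93 under scaling by library size alone and to 0.42 when scaled by counts outside Rn45s alone. With the share of Rn45s as a covariate it was 0.09. Plod1, a lysyl hydroxylase, rose by 1.23 ± 0.26 (edgeR, adjusted p = 0.000727), and Ppib (cyclophilin B), a prolyl isomerase of the endoplasmic reticulum, fell by 0.58 ± 0.14 (adjusted p = 0.00319) but was at 0.19 when scaled by counts outside Rn45s alone. P4hb, the beta subunit of prolyl 4-hydroxylase, was at -0.01 ± 0.14 (adjusted p = 0.970) and P4ha1, its alpha subunit, at 0.26 ± 0.16 (adjusted p = 0.293). Bmp1, the protease that trims the C-propeptides of fibrillar collagens, had -1.22 ± 0.40 (adjusted p = 0.0264).

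The Bmp1 call was lost without Kaede-red 24h replicates 1 or 2, Kaede-green 72h replicate 1, or Kaede-red 72h replicates 1 or 2 (edgeR, adjusted p from 0.0503 to 0.109). At 24h 1 of the 17 was higher, Plod1 (edgeR, adjusted p = 0.0493), and the list's median was 0.13. At 72h 4 were lower and 1 higher (median -0.45), with 2 lower without Kaede-green 72h replicate 1 and none higher without Kaede-green 72h replicate 3. In the other direction, 7 were lower when Kaede-green 24h replicate 4 was left out, and 2 higher when Kaede-green 72h replicate 4 was. The Plod1 call at 24h was lost without Kaede-green 24h replicates 3 or 4, Kaede-red 24h replicates 1, 2 or 3, Kaede-green 72h replicates 1 or 2 or any 1 of the Kaede-red 72h libraries (edgeR, adjusted p from 0.0505 to 0.219). The summed level was 235.1 ± 12.4, 228.0 ± 16.4, 229.5 ± 32.8 and 205.9 ± 13.7 CPM in Kaede-green 24h, Kaede-red 24h, Kaede-green 72h and Kaede-red 72h.

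Receptors that bind collagen and matrix were mixed. Of 16 listed, 12 passed the filter, and 5 rose and 1 fell from green to red over both times. Of all genes tested, 9.96% were called higher and 10.3% lower. The median of the 12 was 0.33 with 4 estimates below 0, and 2 rose with the share of Rn45s as a covariate. Mrc1, an endocytic receptor that takes up collagen fragments, rose by 1.51 ± 0.18 (edgeR, adjusted p = 1.73e-07), Cd36, a scavenger receptor that binds thrombospondin and collagen, by 1.85 ± 0.29 (adjusted p = 1.79e-05) and Lair1, an inhibitory collagen receptor, by 0.80 ± 0.14 (adjusted p = 7.71e-05). For Lair1 this is the mean of 1.29 ± 0.20 at 24h and 0.31 ± 0.19 at 72h (edgeR, adjusted p = 8.97e-05 and 0.298). Cd44, the hyaluronan receptor, was at 0.11 ± 0.14 (adjusted p = 0.616), the mean of -0.32 ± 0.20 at 24h and 0.54 ± 0.19 at 72h (edgeR, adjusted p = 0.379 and 0.0518). The value at 72h was called by DESeq2 (adjusted p = 0.0228), and by edgeR without Kaede-green 24h replicates 2 or 4, Kaede-red 24h replicate 3, Kaede-green 72h replicate 4 or Kaede-red 72h replicate 4 (adjusted p from 0.0274 to 0.0496). Over both times Itgb1, the integrin beta 1 chain, was at 0.34 ± 0.13 (edgeR, adjusted p = 0.0536). Itgb1 passed by DESeq2 (adjusted p = 0.00549), and by edgeR when Kaede-green 24h replicate 4 (adjusted p = 0.0343) or Kaede-green 72h replicate 4 (adjusted p = 0.0495) was left out. At 24h 4 were higher and at 72h 3 were higher and 1 lower, with 2 lower without Kaede-green 24h replicate 4 or Kaede-red 72h replicate 1, and over both times 2 were lower without Kaede-green 24h replicate 2. Their summed level was 219.2 ± 8.95 CPM in Kaede-green 24h, 281.0 ± 16.6 in Kaede-red 24h, 213.8 ± 13.8 in Kaede-green 72h and 309.6 ± 9.72 CPM in Kaede-red 72h.

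**Figure D5:**
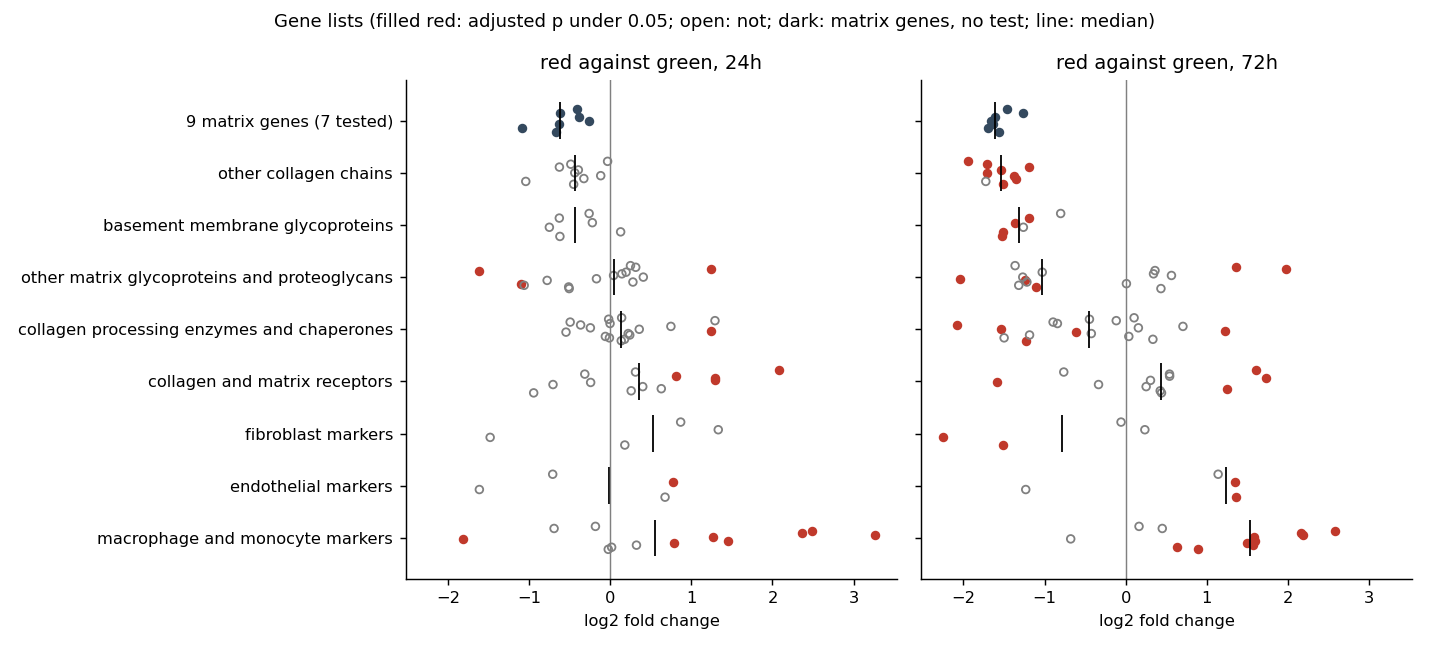
Red-green log2 fold change at 24h and 72h of every tested gene of 8 lists and of the matrix genes, with 1 point per gene, called genes of the lists filled in red and the median of each list as a line. At 72h the other collagen chains (median -1.54) lie left of 0 on the TMM scale, which library-size scaling turns to a median of 0.49, and the macrophage and monocyte markers (median 1.53) lie mostly right of it.

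Markers of cells other than the sorted ones were then set beside the matrix genes. The 20 fibroblast markers summed to 12.1 ± 4.01 CPM in Kaede-green 24h, 12.6 ± 2.40 in Kaede-red 24h, 17.2 ± 7.13 in Kaede-green 72h and 8.47 ± 0.572 CPM in Kaede-red 72h (SD, n = 4). By library the sums were 17.8, 10.2, 8.68 and 11.8 CPM in Kaede-green 24h, 11.7, 11.7, 10.9 and 16.1 in Kaede-red 24h, 20.04, 9.14, 25.5 and 14.0 in Kaede-green 72h and 8.94, 8.98, 8.0 and 7.94 CPM in Kaede-red 72h. The Kaede-red 72h libraries were the lowest of the 16 except that Kaede-green 24h replicate 3 lay among them.

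Of the 4 fibroblast markers tested, 1 was lower over both times and 2 at 72h, beside 10.3% and 8.76% of all genes tested called lower. The medians of the markers were -0.13 and -0.79, and 1.92 and 1.16 under scaling by library size alone. None was called at 24h (median 0.52). Thy1, a surface glycoprotein of fibroblasts and also of T cells, fell by 1.87 ± 0.44 (edgeR, adjusted p = 0.00248), and Pdgfra, the PDGF receptor of mesenchymal cells, was at -0.67 ± 0.34 (adjusted p = 0.175) over both times and at -1.51 ± 0.44 (adjusted p = 0.0155) at 72h, where its call was lost without Kaede-green 72h replicate 1 (adjusted p = 0.0621). Pdpn was at 0.78 ± 0.36 (adjusted p = 0.123), and was called without Kaede-green 24h replicate 1 (edgeR, adjusted p = 0.0104) or Kaede-green 72h replicate 3 (adjusted p = 0.0309). Without Kaede-green 72h replicate 1, or without replicate 3, 1 marker was called lower at 72h, and without Kaede-green 24h replicate 2 or Kaede-green 72h replicates 2 or 3, 2 were over both times.

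Pericyte and smooth muscle markers were scarcer, with 1 of 12 tested, Acta2 (smooth muscle actin), at -1.0 ± 0.55 (edgeR, adjusted p = 0.214). Acta2 took 33.95% of their summed CPM, Rgs5 had 3 counts in all and Cnn1 4, and the list summed to 4.41 ± 2.37, 2.20 ± 1.09, 4.56 ± 2.30 and 1.94 ± 0.872 CPM in Kaede-green 24h, Kaede-red 24h, Kaede-green 72h and Kaede-red 72h. Skeletal muscle markers, from a tissue that lies under the skin near such tumours, were low and moved with the matrix genes. They summed to 10.3 ± 7.14 CPM in Kaede-green 24h, 3.21 ± 2.56 in Kaede-red 24h, 9.30 ± 3.07 in Kaede-green 72h and 1.499 ± 0.813 CPM in Kaede-red 72h.

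Among the muscle sums, Kaede-red 24h replicates 3 and 4 had 4.53 and 6.13 CPM, against 0.613 and 1.58 in replicates 1 and 2. Of 8 listed, 2 passed the filter. Beside 10.3% of all genes tested called lower, both fell over both times. These were the myosin heavy chains Myh1 (-2.54 ± 0.55, edgeR, adjusted p = 0.000885) and Myh4 (-2.12 ± 0.62, adjusted p = 0.0128), and over both times they kept their sign under scaling by library size alone (list median -0.37). At 24h, where neither was called, the list median of -1.22 turned to 0.72 on that scale and to 0.06 with the share of Rn45s as a covariate. Myh4, with 160 counts, took 29.3% of the summed CPM of the list, and Actn3 had 8. DESeq2 did not call Myh4 (adjusted p = 0.0522). At 72h both were lower, and 1 was without Kaede-green 72h replicate 4 or without Kaede-red 72h replicate 1, 2 or 4. The part of muscle RNA in the matrix differences was not tested.

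Adipocyte markers rested on Fabp4, a fatty acid carrier that macrophages also express, with 79.7% of their summed CPM. It was at -0.91 ± 0.44 (edgeR, adjusted p = 0.148), Adipoq had 4 counts and Plin1 2, and the 7 genes summed to 2.67 ± 1.24, 1.52 ± 0.531, 1.41 ± 0.867 and 0.535 ± 0.0976 CPM in the same order of groups. None of 12 tumour epithelial markers passed the filter. Epcam and Krt8 had 9 counts each, Krt18 2 and Krt19 1, Cdh1 took 51.1% of their summed CPM, and the sums were 1.96 ± 1.83, 0.584 ± 0.535, 0.736 ± 1.10 and 1.10 ± 0.279 CPM. None of 8 skin keratinocyte markers passed it either, with Krt5 and Krt14 at 25 counts each, Trp63 highest with 23.7% of the summed level, and sums of 0.139 ± 0.278, 0.349 ± 0.286, 0.575 ± 0.858 and 0.695 ± 0.566 CPM.

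Endothelial markers were mixed. They summed to 20.7 ± 4.36 CPM in Kaede-green 24h, 24.9 ± 1.83 in Kaede-red 24h, 17.7 ± 4.14 in Kaede-green 72h and 35.7 ± 6.77 CPM in Kaede-red 72h, and Kdr, a VEGF receptor, took 52.8% of their summed CPM. Of 14 listed 4 passed the filter. Kdr rose by 1.06 ± 0.17 (edgeR, adjusted p = 1.79e-05) and Pecam1, which leukocytes share, by 1.02 ± 0.25 (adjusted p = 0.00313), while Flt1 was at 0.22 ± 0.29 (adjusted p = 0.653), the mean of -0.71 ± 0.40 at 24h and 1.14 ± 0.41 at 72h (edgeR, adjusted p = 0.321 and 0.0526). The value at 72h was called without any 1 of the Kaede-green 24h libraries, Kaede-green 72h replicate 1 or Kaede-red 72h replicate 3 (edgeR, adjusted p from 0.0381 to 0.0497). Cdh5, the cadherin of endothelial junctions, was at -1.42 ± 0.49 (edgeR, adjusted p = 0.0375) with 202 counts. Of the untested genes, Cldn5 had 2 counts in all, Sox17 and Emcn 7 each, Tek 8 and Robo4 17. Esam had 25, Tie1 27, Vwf 35, Plvap 44 and Egfl7 74.

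The Cdh5 call was kept only without Kaede-green 24h replicate 1, Kaede-red 24h replicate 4, Kaede-green 72h replicates 1, 2 or 4, or Kaede-red 72h replicate 2, and lost without each other library (edgeR, adjusted p from 0.0538 to 0.141). At 24h Kdr was the 1 gene called (edgeR, adjusted p = 0.0471), a call lost without any single library of that time, without Kaede-green 72h replicate 1 or without Kaede-red 72h replicates 1, 2 or 4 (edgeR, adjusted p from 0.0539 to 0.163). At 72h 2 were higher and the median of the list was 1.24.

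The markers of the sorted cells were high throughout, as the sort label states. All 12 macrophage and monocyte markers passed the filter and summed to 1867 ± 579.9 CPM in Kaede-green 24h, 1136 ± 252.8 in Kaede-red 24h, 1458 ± 196.9 in Kaede-green 72h and 1671 ± 154.2 CPM in Kaede-red 72h, with Lyz2 (lysozyme) at 48.9% of their summed CPM. Over both times 8 rose and 1 fell in Kaede-red cells (median 1.04), beside 9.96% of all genes tested called higher and 10.3% lower. C1qa, a chain of complement C1q, rose by 2.72 ± 0.16 (edgeR, adjusted p = 2.46e-13) and C1qc by 2.53 ± 0.18 (adjusted p = 2.60e-11), while Lyz2 fell by 1.25 ± 0.20 (adjusted p = 1.95e-05) on the TMM scale and was at 0.86 under scaling by library size alone. With the share of Rn45s as a covariate, C1qa, C1qc, Mrc1, Cd36, Pf4 and Lyz2 were still called over both times among the genes named here, and no other named gene was. The monocyte genes Ly6c2 and Ccr2 were at -0.12 ± 0.18 (adjusted p = 0.691) and -0.01 ± 0.13 (adjusted p = 0.974) over both times. For Ly6c2 this is the mean of -0.69 ± 0.26 at 24h and 0.45 ± 0.26 at 72h (edgeR, adjusted p = 0.102 and 0.243), and for Ccr2 of -0.18 ± 0.19 and 0.17 ± 0.19. The Ly6c2 value at 24h was called with Kaede-green 24h replicate 4 out (edgeR, adjusted p = 0.0385).

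Other leukocytes were sparse. Of 12 neutrophil markers 11 were counted and 2 tested, and S100a8 had 58 counts and Ngp none. Csf3r, which took 70.6% of the summed CPM and is also a monocyte gene, rose by 0.67 ± 0.17 (edgeR, adjusted p = 0.00576). This is the mean of 0.21 ± 0.26 at 24h and 1.12 ± 0.24 at 72h (edgeR, adjusted p = 0.70 and 0.00094). Mmp8 was at 0.50 ± 0.32 (edgeR, adjusted p = 0.288), the mean of -0.28 ± 0.44 at 24h and 1.29 ± 0.47 at 72h (adjusted p = 0.0539). The Mmp8 value at 72h was called without Kaede-green 24h replicate 4, Kaede-green 72h replicates 1 or 3 or Kaede-red 72h replicate 4 (edgeR, adjusted p from 0.0367 to 0.0483). Their sums were 10.9 ± 1.68, 11.8 ± 2.21, 11.6 ± 1.15 and 20.9 ± 2.44 CPM in Kaede-green 24h, Kaede-red 24h, Kaede-green 72h and Kaede-red 72h. Of 8 dendritic cell markers 3 were tested, 1 higher and 1 lower, with Xcr1 at 13 counts, Clec9a at 17 and sums of 8.29 ± 2.72, 7.66 ± 0.814, 11.6 ± 1.76 and 9.77 ± 1.02 CPM. The higher one, Ccr7, a chemokine receptor, had no count in Kaede-green 24h, so its fold is not given. Fscn1 (fascin), which took 64.2% of the summed CPM, was at -0.54 ± 0.20 (edgeR, adjusted p = 0.0494), and Cd209a at -0.34 ± 0.53 (adjusted p = 0.704).

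The Fscn1 call was kept only without Kaede-green 24h replicates 3 or 4, Kaede-red 24h replicate 4, Kaede-green 72h replicate 2 or Kaede-red 72h replicate 3, and lost without each other library (edgeR, adjusted p from 0.0567 to 0.115). Of 12 lymphocyte markers 11 were counted and 2 tested, Cd79b (0.60 ± 0.69, edgeR, adjusted p = 0.592, the mean of -0.62 ± 0.93 at 24h and 1.82 ± 0.99 at 72h) with 18.2% of the summed CPM and Cd4 (2.46 ± 0.89, adjusted p = 0.0471), which DESeq2 did not call (adjusted p = 0.127). Cd4 kept its call only without Kaede-green 24h replicate 2, Kaede-red 24h replicate 3, Kaede-green 72h replicate 4 or Kaede-red 72h replicate 3 (edgeR, adjusted p elsewhere from 0.0579 to 0.114). Cd3d had 29 counts, and the list summed to 4.08 ± 2.75, 2.29 ± 1.16, 1.43 ± 0.971 and 3.06 ± 1.14 CPM in the order above.

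Of 10 mast cell and platelet markers 1 was tested, the platelet chemokine gene Pf4, which macrophages also express. It took 90.5% of the summed CPM and rose by 2.72 ± 0.31 (edgeR, adjusted p = 9.50e-08), while Cpa3 had 7 counts and Gp9 none, and the sums were 3.60 ± 3.25, 24.2 ± 5.05, 2.76 ± 1.26 and 12.4 ± 5.21 CPM. Of 7 erythroid markers 2 were tested, the alpha globin genes Hba-a1 and Hba-a2, whose counts were identical in every library and are uncertain as near-identical copies. Both were at 0.01 over both times (edgeR, adjusted p = 0.999). The SE of this mean is left out, as its computed value exceeded the SE of each time alone. Each copy had 163 counts and 34.9% of the summed CPM. The sums were 7.02 ± 2.32, 6.49 ± 5.07, 1.47 ± 0.891 and 3.15 ± 5.47 CPM. Kaede-red 24h replicates 3 and 4 had sums of 11.4 and 10.3 CPM, against 1.93 and 2.31 in replicates 1 and 2, the same split as in the sums of the matrix genes (92.3 and 82.1 against 41.3 and 43.95 CPM), and Kaede-red 72h replicate 3 had 11.3 CPM.

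Type I collagen is built from 2 chains of Col1a1 to 1 of Col1a2. The ratios of CPM given here are not per length and do not measure the ratio of chains. For Col1a1 to Col1a2 the log2 ratio was 0.81 ± 1.16 (SD, n = 4) in Kaede-green 24h, 0.93 ± 0.40 in Kaede-red 24h, 1.15 ± 0.49 in Kaede-green 72h and 1.12 ± 0.41 in Kaede-red 72h. For Col4a1 to Col4a2 it was 0.67 ± 0.29, 0.78 ± 0.49, 0.31 ± 0.15 and 0.11 ± 0.73, and for Col6a1 to Col6a2 0.50 ± 0.28, 0.35 ± 0.20, 0.21 ± 0.19 and 0.62 ± 0.38. These ratios overlapped between the colours at both times, that of Col6a1 to Col6a2 at 72h through Kaede-green replicate 1 alone (0.47, the other Kaede-green libraries 0.02 to 0.20, Kaede-red 0.40 to 1.19). No test of these ratios was run.

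Between fibril types, the group means of the log2 ratio of Col1a1 to Col3a1 differed more between the times than between the colours. No test of this was run. The ratio was -0.95 ± 0.41 in Kaede-green 24h and -1.03 ± 0.43 in Kaede-red 24h, and -0.41 ± 0.18 and -0.36 ± 0.65 in the same colours at 72h. The 4 Kaede-green libraries of 72h, from -0.58 to -0.22, were level with or above those of 24h, from -1.34 to -0.58, and in Kaede-red cells the times overlapped. The ratios are not given per length, so they compare groups and not genes.

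Within the groups, the genes varied together only in part. After each group's mean was taken away, the log2 CPM of a member correlated with the mean of the others at a median r of 0.43 over the 16 libraries (from -0.18 to 0.77 for the 7 genes). Libraries share 1 depth across genes, and r is given as a description. Col1a1 and Col4a1 were most alike (r = 0.75), then Col3a1 and Sparc (0.66) and Col4a1 and Col6a1 (0.62), while Col1a1 and Col1a2 were not (0.02) and Col1a2 and Col5a2, both of low counts, were at -0.54.

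Against the mean of the 7 genes, the 9 other collagen chains had r from 0.52 to 0.88 (median 0.61) and the 12 macrophage and monocyte markers from -0.77 to 0.26 (median -0.42), beside a median of 0.03 over the 9635 other genes tested. The 5 most alike among 8756 genes were Col5a1 (r = 0.88), Slc7a5, an amino acid transporter (0.87), Igfbp4, a binding protein of insulin-like growth factors (0.82), Synpo, an actin-binding protein (0.81), and Ncam1, an adhesion molecule (0.80). Over both times Igfbp4 fell by 0.88 ± 0.16 in Kaede-red cells (edgeR, adjusted p = 0.000109), and Ncam1 was at -0.93 ± 0.40 (adjusted p = 0.0980) and Synpo at -0.60 ± 0.43 (adjusted p = 0.351). Slc7a5 was at -0.55 ± 0.20 (edgeR, adjusted p = 0.0445), but the call was lost without Kaede-green 24h replicate 3, Kaede-red 24h replicates 1 or 2, Kaede-green 72h replicates 3 or 4 or Kaede-red 72h replicates 2, 3 or 4 (adjusted p from 0.0763 to 0.116).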

How the data were processed

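The authors' pipeline, per the submitters' notes, trimmed reads with Trim Galore, checked them with FastQC, used HISAT2 with mm10 for alignment and featureCounts for counts per gene, and no versions or strand setting were given. The deposited values are raw counts per gene, from stranded total RNA libraries of low input, and the columns of the combined table equal the 16 single files.

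In R 4.3.3 with edgeR 4.0.16, genes were filtered by filterByExpr, scaled by TMM (prior count 2 for log2 CPM) and fitted with 1 mean per group over all 16 libraries, with quasi-likelihood tests, Benjamini-Hochberg adjustment over 9642 genes and a threshold of 0.05 on the adjusted p. The common dispersion was 0.0702. The code was tested on simulated data. Tables and plots used Python 3.11.15 with pandas 2.3.3 and matplotlib 3.10.9.

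The 9 members and the 18 other lists were chosen with earlier results of these data known. Beside the members, the text names for each list the 3 tested genes with the highest level and the 2 called genes with the largest difference over both times, and the 5 genes most alike in profile, and gives counts for further markers picked after their values were seen. Levels are per library, and exon lengths, positions and coding sequences come from GENCODE M21, in which 95.5% of the counted genes had a symbol match.

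Alternatives were DESeq2 1.42.0, RLE factors, library size only, Rn45s left out, no filter, at least 10 counts in every library, robust dispersion, Kaede-red libraries thinned to the median Kaede-green depth outside Rn45s of their time, the Rn45s share as a covariate, a fit of only the groups compared, each library left out and a replicate block. For levels, ratios and likeness they were TMM without Rn45s, library size outside Rn45s and a prior count of 0.5. Chosen after seeing the data were leaving out Kaede-red 24h replicates 3 and 4, leaving out Rn45s, Lars2 and Mir6236, library sizes outside these, and offsets for GC or exon length, which had values for 96.1% of the genes tested. Series data other than these 16 libraries were not used here.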

Additional observations from a re-analysis of the deposited data

Results flagged for a closer look

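Of 144 groups of 4 values looked at, 11 held a library far from the other 3 by its gap to the nearest of them, and chance gives about 1 in 20 groups of continuous values. That rate does not hold for 3 of the 11, in which 1 to 3 counts stand beside libraries with none. Of these, Lum had 3 counts (0.263 CPM) in Kaede-red 24h replicate 1 and 1 count (0.259 CPM) in Kaede-green 72h replicate 4. Kaede-red 24h replicate 4 had total counts of 13010000 (the others 3217000 to 4481000) and a summed level of fibroblast markers of 16.1 CPM (10.9 to 11.7). In Kaede-green 24h replicate 4, other matrix glycoproteins and proteoglycans summed to 807.2 CPM (935.5 to 943.2) and lymphocyte markers to 8.16 CPM (2.23 to 3.06). Skin keratinocyte markers had 1 count (0.557 CPM) in Kaede-green 24h replicate 1 and none in the other 3. Kaede-red 72h replicate 3 had 2.72 CPM of skeletal muscle markers (1.05 to 1.13) and 11.3 CPM of erythroid markers (0.0630 to 1.13). The log2 ratio of Col1a1 to Col1a2 was 0.34 in Kaede-red 24h replicate 2 (1.09 to 1.21), and that of Col6a1 to Col6a2 was 1.19 in Kaede-red 72h replicate 1 (0.40 to 0.46). Fstl1 was the 1 named gene with a called change of its red-green difference between the times, -1.87 (edgeR, adjusted p = 0.0483).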

How the results depend on the processing

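Counts of genes called held within 1.5 times for all 6 comparisons under RLE factors, Rn45s left out, robust dispersion, the GC offset, and with Rn45s, Lars2 and Mir6236 left out or out of the library size. In all, 150 of these counts held and 46 moved. Of the differences of the matrix genes 1198 moved by less than their spread, 48 by more with the same sign and 34 by more with a turn of sign. A turn of sign within the spread is counted among the 1198. Of the other named genes 1465 values kept their side of the threshold, 149 were no longer called, 34 were newly called and 37 turned sign with at least 1 of the 2 values called. Levels moved in 76 and held in 140 cases, likeness moved in 10 and held in 347, and all 80 ratios held. All 36 group levels moved under TMM without Rn45s, and all 36 under library size outside Rn45s. The cause of each move below was not tested. Depth outside Rn45s, with 157 to 1477 matrix counts per library, limits Col5a2, Dcn and Lum most. With offsets for GC and exon length the red-green calls shifted toward lower, to 744 higher and 1204 lower over both times and 247 and 585 at 24h for GC, and to 767 and 1190 and 265 and 560 for length.

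Scaled by library size only, the number of genes called was 9328 with the times together, 9052 for 24h, 8133 for 72h, 9 from 24h to 72h in Kaede-red cells, 36 in Kaede-green cells and 1 for the change between times. The differences between the colours, for the 2 times together, then 24h, then 72h, were 0.90, 1.39 and 0.41 for Col1a1, 0.66, 1.17 and 0.16 for Col1a2, 0.89, 1.51 and 0.27 for Col3a1, 1.20, 1.91 and 0.48 for Col5a2, 1.11, 1.75 and 0.47 for Col4a1, 1.13, 1.52 and 0.74 for Col6a1 and 1.08, 1.71 and 0.46 for Sparc. From 24h to 72h they were 0.11 for Col1a1 and 0.14 for Col5a2 in Kaede-red cells, and 0.83 for Col1a2, 0.62 for Col3a1 and 0.46 for Col6a1 in Kaede-green cells.

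On the same scale, over both times, other genes that turned were Agrn 1.48, Bmp1 0.99, Ccr2 2.14, Cd209a 1.91, Cdh5 0.63, Col16a1 1.05, Col4a5 0.57, Col5a1 1.21, Col6a2 1.02, Col6a3 1.14, Fabp4 1.26, Fn1 2.12, Fscn1 1.54, Fstl1 0.93, Hspg2 1.09, Igfbp4 1.17, Lama5 0.96, Lamc1 1.29, Ly6c2 1.94, Lyz2 0.86, Ncam1 1.11, P4hb 2.08, Pdgfra 1.44, Ppib 1.57, Slc7a5 1.47, Synpo 1.47, Thbs1 1.65 and Thy1 0.24.

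Scaled by library size outside Rn45s only, the calls were 5659 with the times together, 4442 for 24h and 3589 for 72h. At 24h Col1a1 turned to 0.22, Col3a1 to 0.23, Col4a1 to 0.49, Col6a1 to 0.24 and Sparc to 0.40, and over both times Ccr2 was 0.76, Fn1 0.73, Fscn1 0.22, Ly6c2 0.64, P4hb 0.76, Ppib 0.19, Slc7a5 0.20 and Thbs1 0.22. In Kaede-green cells Col1a2 was 0.06 and Col3a1 0.04.

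With the share of Rn45s as a covariate, the calls were 156 with the times together, 206 for 24h, 102 for 72h, 34 for the change and 110 between the times in Kaede-red cells, and Sparc was 0.011 over both times and 0.36 at 24h and Slc7a5 0.074. With Kaede-red 24h replicates 3 and 4 left out, 462 were called at 24h, 1 for the change and 9 between the times in Kaede-red cells, with Col1a1 at 0.10 in Kaede-red cells and the change of Col6a1 at 0.077. A fit of only the groups compared called 1604 genes from 24h to 72h in Kaede-red cells. For the change, DESeq2 called 343, no filter 216, at least 10 counts in every library 161, the exon length offset 123 and thinned Kaede-red libraries 33. From 24h to 72h in Kaede-green cells DESeq2 called 13 and no filter 37. DESeq2 tested 21009 genes and the fit without a filter 21040.

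With each library left out in turn, the number called ran from 1583 to 2087 over both times, 502 to 769 at 24h, 1148 to 1910 at 72h, 287 to 1109 from 24h to 72h in Kaede-red cells, 0 to 2 in Kaede-green cells and 2 to 155 for the change. A replicate block, with libraries of the same number and time paired, called 1780, 705, 1562, 877, 0 and 164 genes in the same order. Over genes, r between the paired libraries, with group means taken away, was -0.02 to 0.15, with 1 of 8 pairs over 0.1, and 4 of 16 libraries were closest to their own number. At 24h r was above 0 within replicates 1 and 2 and within 3 and 4 of the 2 colours, and below 0 across them.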
